A study of Mus musculus with 6 samples.

Results

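The miR-7 family of the mouse is a set of mature microRNAs (miRNAs) cut from 3 hairpin precursors, and it was examined here in bone marrow-derived endothelial progenitor cells (EPCs) from mice that had inhaled concentrated fine particulate matter (CAP) or filtered air. The members were every row of the count table named mmu-miR-7a-5p, mmu-miR-7b-5p, mmu-miR-7a-1-3p, mmu-miR-7a-2-3p or mmu-miR-7b-3p (the species prefix mmu is left out below), which gave 5 of the 1915 mature names and 6 of the 2061 rows. The family was chosen by its counts in the CAP and air libraries themselves, so the differences between CAP and air given here for its members are a description, carry no test and support nothing further. Of the 5 members, 3 passed the filter on low counts and 2 were at 0 in every library.

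Young adult male mice (C57BL/6 in the labels, C57BL/6J in the study's methods) inhaled CAP, or HEPA-filtered air as the control, on repeated days over about a month, and their bone marrow cells were then cultured under conditions that favour EPCs, for 12 days per the labels. The study's methods state a shorter time in culture than the labels. Small RNA from 3 CAP and 3 air cultures was sequenced, 1 library per mouse. The 3 mice of a group shared 1 cage, so the cage and the exposure cannot be told apart. Neither group carried an engineered allele, and the cultured cells were not sorted to a single type by any step the labels describe. Bulk libraries cannot tell fewer cells of a type from less RNA per cell.

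A miRNA hairpin yields a 5p and a 3p strand, of which one is usually loaded into Argonaute while the other is mostly degraded. The loaded strand finds messenger RNAs mainly through its seed, bases 2 to 8, and represses them. miR-7 is among the most conserved animal miRNAs, is known for high levels in neurons, the pituitary and pancreatic islets, and has been described as a brake on EGF receptor and insulin receptor substrate signalling. In the brain its level is controlled after processing, since the long noncoding RNA Cyrano triggers the destruction of miR-7 and the circular RNA Cdr1as, which carries many miR-7 sites, binds it.

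The mature sequences are shown because their near identity decides how reads can be assigned to the members. They were taken from RefSeq on GRCm38.p6, 5′ to 3′, with the seed in capitals.
miR-7a-5p: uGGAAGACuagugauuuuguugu
miR-7b-5p: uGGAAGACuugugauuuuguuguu
miR-7a-1-3p: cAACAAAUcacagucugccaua
miR-7a-2-3p: cAACAAGUcccagucugccaca
miR-7b-3p: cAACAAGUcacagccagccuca
With positions counted from 1 at the 5′ end, miR-7a-5p (23 bases) and miR-7b-5p (24 bases) differed by A10U and by the extra base at the 3′ end of miR-7b-5p. They were the only 2 of 1679 mature names in RefSeq with the seed GGAAGAC, and no further name shared even bases 2 to 7. The 3p strands fell into a pair of seeds. miR-7a-2-3p and miR-7b-3p shared AACAAGU, whereas miR-7a-1-3p had AACAAAU, because A7G separates it from both. Outside the seed, miR-7a-1-3p differed from miR-7a-2-3p by A10C and U21C, and from miR-7b-3p by U14C, U16A, A20U and U21C.

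The 3 hairpins are shown because miR-7a-5p is cut from a pair of them and the flanking bases are all that tells these apart. Capitals mark the 5p and then the 3p strand.
mir-7a-1: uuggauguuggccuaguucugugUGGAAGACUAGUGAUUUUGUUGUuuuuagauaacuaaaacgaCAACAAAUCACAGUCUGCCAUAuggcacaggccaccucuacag
mir-7a-2: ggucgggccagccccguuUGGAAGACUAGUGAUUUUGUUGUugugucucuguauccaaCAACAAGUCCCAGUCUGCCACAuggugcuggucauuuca
mir-7b: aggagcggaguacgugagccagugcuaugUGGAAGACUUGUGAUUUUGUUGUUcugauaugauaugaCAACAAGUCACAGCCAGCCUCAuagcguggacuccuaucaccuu
On GRCm38, mir-7a-1 (108 bases) lies at chr13:58392779-58392886 on the minus strand, in an intron of Hnrnpk, which encodes an RNA-binding protein expressed in most cells. mir-7a-2 (97 bases) lies at chr7:78888277-78888373 on the plus strand, between genes, 7480 bases from the nearest, Aen. mir-7b (111 bases) lies at chr17:56242988-56243098 on the plus strand, between genes, 182 bases from a lincRNA. The mir-7a-1 and mir-7a-2 hairpins shared 0 bases immediately before the 5p strand and 1 base immediately after it, so a read of the 23 bases alone matched both.

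The libraries held 19978586 to 25532775 deposited counts in CAP cells and 21973143 to 23330772 in air cells. With 1 row kept per mature name, the row with the highest total, 13831209 to 18107578 counts per library remained, and 677 names passed the filter on low counts. Levels are counts scaled to a common library size (CPM) by TMM. A count of 0 allowed up to 3 counts, or 0.166 to 0.217 CPM per library. Intervals and such limits cover counting error only, since reads amplified by PCR are not independent molecules. The libraries carried the numbers 8, 9 and 10 in CAP and 1, 2 and 4 in air, so any effect of library order cannot be told apart from the exposure. With edgeR's quasi-likelihood test and Benjamini-Hochberg adjustment, 0 of the 677 miRNAs passed an adjusted p of 0.05 (0.00%), the smallest adjusted p being 0.146. At an unadjusted p under 0.05 there were 142 miRNAs (21.0%), 78 higher in CAP and 64 lower. DESeq2 called 30 and limma-voom called 0.

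miR-7a-5p, the guide strand of both miR-7a hairpins, made up nearly the whole family signal, with 98.1% of all family counts, and lay higher in every CAP library than in every air library. mmu-miR-7a-5p had 57070, 87348 and 46506 counts in CAP cells, against 42919, 36134 and 29420 in air cells. On the CPM scale its levels were 3651, 4838 and 3442 in CAP cells, against 2479, 2231 and 1945 in air cells. The groups did not overlap, and CAP replicate 2 stood above the other CAP libraries. miR-7a-5p averaged 3977 ± 753 CPM in CAP and 2218 ± 267 CPM in air (SD, n = 3 each), a 1.79-fold ratio, and its fitted log2 fold change was 0.84 ± 0.16 (SE). It took 0.366%, 0.482% and 0.336% of the counts of the CAP libraries, against 0.260%, 0.224% and 0.189% in air. By mean level it ranked 44 in CAP, 56 in air and 50 over all libraries among the 677 miRNAs, so it was an abundant miRNA of these cells in both groups.

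miR-7b-5p, the guide strand of mir-7b with the same seed, was counted at a far lower level and with the libraries in the same order as for miR-7a-5p. mmu-miR-7b-5p had 96, 135 and 72 counts in CAP cells, against 63, 57 and 45 in air cells. These counts were 6.14, 7.48 and 5.33 CPM in CAP and 3.64, 3.52 and 2.97 CPM in air. The groups again did not overlap. The sequence is nearly that of miR-7a-5p, and how many of these counts were misread miR-7a-5p was not tested. miR-7b-5p averaged 6.32 ± 1.09 CPM in CAP and 3.38 ± 0.35 CPM in air (SD, n = 3 each), a 1.87-fold ratio with a fitted log2 fold change of 0.90 ± 0.20 (SE), and ranked 434 of 677.

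miR-7a-1-3p, the passenger strand of the mir-7a-1 hairpin, did not follow the guide strand. mmu-miR-7a-1-3p had 843, 1107 and 616 counts in CAP cells, against 1097, 967 and 833 in air cells. Its levels were 53.9, 61.3 and 45.6 CPM in CAP and 63.4, 59.7 and 55.1 CPM in air, and the groups overlapped. miR-7a-1-3p averaged 53.6 ± 7.87 CPM in CAP and 59.4 ± 4.15 CPM in air (SD, n = 3 each), with a fitted log2 fold change of -0.15 ± 0.14 (SE). Although it is the passenger strand, it ranked 215 of 677 and was above miR-7b-5p in all libraries.

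**Figure D1:**
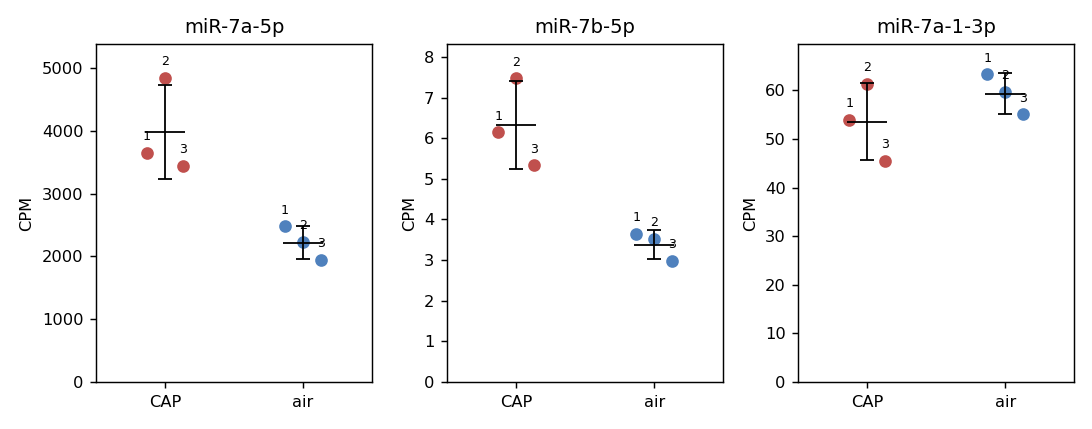
Level in CPM (vertical axis, from 0) of the 3 members that passed the filter, for the 3 CAP and the 3 air libraries. Points are libraries with their replicate number, and the black bar and whiskers are the mean ± SD; the CAP points of miR-7a-5p (3442 to 4838) and miR-7b-5p (5.33 to 7.48) sit above all air points, while those of miR-7a-1-3p overlap with air.

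miR-7a-2-3p and miR-7b-3p, the passenger strands of the other hairpins, had 0 counts in all 6 libraries. Taken over all libraries together, 3 counts would be 0.0313 CPM. For miR-7a-2-3p this upper limit was 0.0549% of the 5463 counts of miR-7a-1-3p, so any miR-7a-2-3p lay far below the passenger strand of mir-7a-1. For miR-7b-3p the limit was weaker, at 0.641% of the 468 counts of miR-7b-5p, where miR-7a-1-3p stood at 1.82% of the miR-7a-5p counts.

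The members' calls under the contrast that chose them are given with the share of all miRNAs and are not read as a result. In edgeR 0 members passed the adjusted threshold, where 0.00% of all 677 did. miR-7a-5p and miR-7b-5p were among the 11.5% of miRNAs at an unadjusted p under 0.05 and higher in CAP, among the 1.98% of 706 that DESeq2 called higher, and among the 14.6% whose CAP libraries all lay above their air libraries. miR-7a-1-3p was in none of these sets. The median log2 fold change of all tested miRNAs was 0.0040. Upper-quartile scaling moved that median to 0.15 and left 130 miRNAs higher and 25 lower below that unadjusted p, where TMM gave 78 and 64, and it gave miR-7a-5p a log2 fold change of 0.99, miR-7b-5p 1.05 and miR-7a-1-3p -0.00022.

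**Figure D2:**
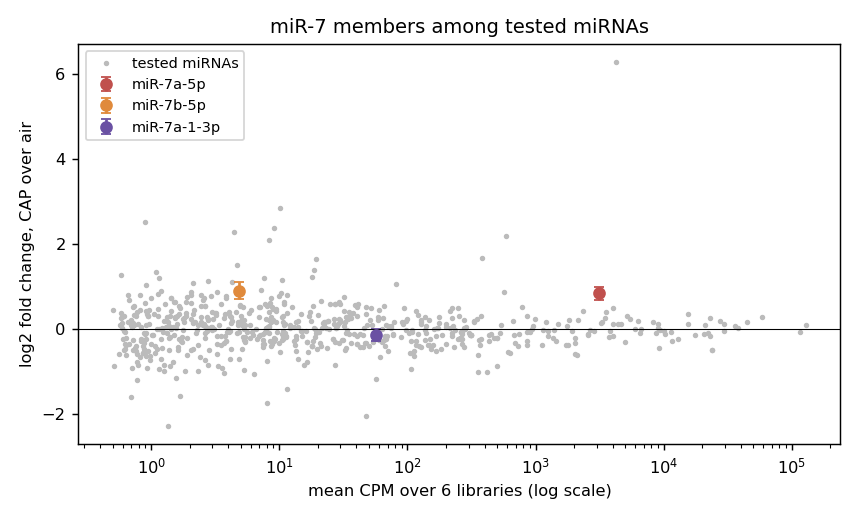
Fitted log2 fold change of CAP over air (vertical axis) against mean CPM over the 6 libraries (horizontal, log scale) for the 677 tested miRNAs in grey, with the 3 miR-7 members in colour and whiskers of 1 SE. miR-7a-5p (0.84) and miR-7b-5p (0.90) lie above the bulk of miRNAs and miR-7a-1-3p (-0.15) lies close to 0.

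Among tested miRNAs, 29 had a larger log2 fold change than miR-7a-5p, and most of these were scarce. Only 4 of the 184 miRNAs of at least 100 CPM exceeded it, namely miR-122-5p, miR-192-5p, miR-194-5p and miR-92a-3p. Among the 74 of at least 1000 CPM it was exceeded by 1, the liver miRNA miR-122-5p, which had 24731 CPM in CAP replicate 1 but 277 and 122 in the other CAP libraries, against 101, 146 and 75.0 in air. Most of the miR-122-5p value thus came from CAP replicate 1, without which it was 0.82. miR-192-5p also stood highest in that library, at 2438 CPM against 236 and 242 in the other CAP libraries and 190 to 226 in air. So did miR-194-5p, at 1414 CPM against 165 and 171, with air at 163 to 197. miR-92a-3p was highest in CAP replicate 2, at 1146 CPM against 612 and 443, with air at 365 to 446. The CAP and air libraries of miR-194-5p and miR-92a-3p overlapped. For miR-7a-5p, leaving out CAP replicate 2, its highest library, brought the fitted value from 0.84 to 0.66. Leaving out CAP replicate 1 and air replicate 2 together, a run added to the planned ones, gave 0.87 for miR-7a-5p. These values rest on the counts that chose the family, so they cannot show which of the differences is the sounder.

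The pair of rows for miR-7a-5p were nearly the same counts. The mir-7a-1 row, used above, was the larger in every library, and the mir-7a-2 row held 55812, 85857 and 45385 counts in CAP cells, against 41967, 35323 and 28682 in air cells. A read that matched both hairpins was therefore counted at each, and the rows do not say which hairpin the reads came from. The net excess of the mir-7a-1 row was 1258, 1491 and 1121 counts in CAP and 952, 811 and 738 in air, or 1.71% to 2.41% of the row in CAP and 2.22% to 2.51% in air. In CPM this excess was 80.5, 82.6 and 83.0 in CAP cells, against 55.0, 50.1 and 48.8 in air cells. It averaged 82.0 ± 1.34 CPM in CAP and 51.3 ± 3.27 CPM in air (SD, n = 3 each), a 1.60-fold ratio without overlap of the groups. As a percent of the row it was not higher in CAP. The excess is a net difference of the rows that chose the family, so it is no separate observation. It does not count the reads given to mir-7a-1 alone. Which bases set the reads of the rows apart is not recorded in the table. Near-equal rows were common, since of the 44 names with several rows and at least 1000 counts 33 had rows within 5% of each other, 9 had identical rows, and 30 had closer rows than miR-7a-5p.

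The 5p strand of mir-7a-1 exceeded its own 3p strand by a wider margin in CAP than in air, in a ratio that library scaling does not touch. There were 67.7, 78.9 and 75.5 miR-7a-5p counts for each miR-7a-1-3p count in CAP libraries, against 39.1, 37.4 and 35.3 in air libraries. The mean ratio was 74.0 ± 5.74 in CAP and 37.3 ± 1.90 in air (SD, n = 3 each), 1.99-fold apart. The groups were well separated relative to their spread. As a share of both strands, miR-7a-1-3p made up 1.46% (95% Wilson interval 1.36% to 1.56%), 1.25% (1.18% to 1.33%) and 1.31% (1.21% to 1.41%) in CAP. In air it made up 2.49% (2.35% to 2.64%), 2.61% (2.45% to 2.77%) and 2.75% (2.57% to 2.94%). The ratio rests on the miR-7a-5p counts that chose the family, and it includes reads from mir-7a-2, whose 5p strand is identical.

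Set against the other hairpins, the log2 ratio of the more to the less abundant strand differed between CAP and air by 0.99 for mir-7a-1. The ratio was without overlap and higher in CAP for 15.7% of the 230 hairpins with both strands tested, mir-7a-1 among them. By size of the increase mir-7a-1 was the 5th of 230, after mir-486a (1.71), mir-1247 (1.16), mir-669l (1.07) and, by a small margin, mir-700, all with fewer counts in the scarcer strand. Of the 135 hairpins with at least 600 counts in the scarcer strand, a minimum chosen after the data were seen, mir-7a-1 had the largest increase. The median of these hairpins was -0.06, with a 5th percentile of -0.76 and a 95th percentile of 0.61, and 31 of them moved by at least 0.5 in either direction. Among them, the decreases of mir-23a (-1.22) and mir-365-2 (-1.21) were larger in size than the increase of mir-7a-1.

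**Figure D3:**
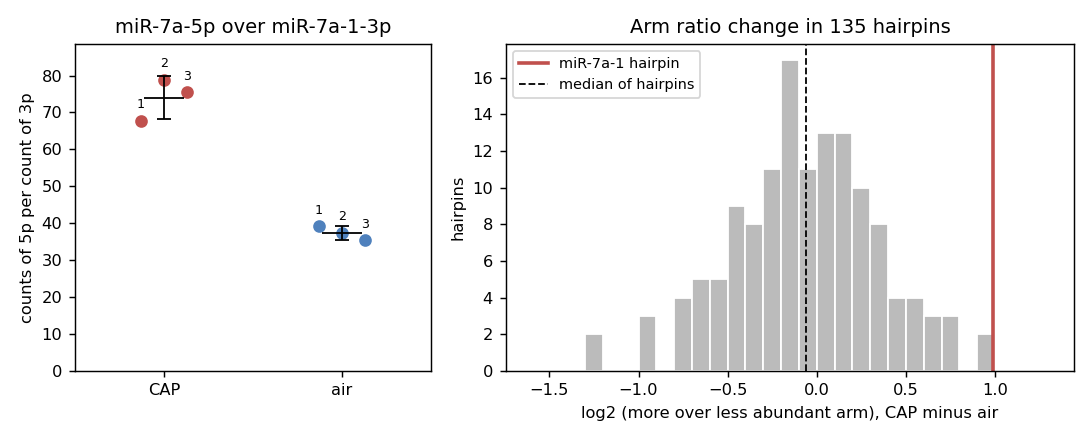
Left, counts of miR-7a-5p per count of miR-7a-1-3p (vertical axis, from 0) in the 3 CAP and 3 air libraries, with mean ± SD in black; CAP libraries lie at 67.7 to 78.9 and air libraries at 35.3 to 39.1. Right, histogram of the CAP minus air difference in the log2 ratio of the more to the less abundant strand for 135 hairpins, with mir-7a-1 (0.99) as a red line at the upper end and the median (-0.06) dashed.

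miR-7b-5p made up a nearly constant share of the miR-7 guide strand. Of the miR-7a-5p and miR-7b-5p counts together, miR-7b-5p made up 0.168%, 0.154% and 0.155% in CAP libraries, against 0.147%, 0.158% and 0.153% in air libraries, or 1 count for every 594 to 681 of miR-7a-5p. The means were 0.159% ± 0.0078 in CAP and 0.152% ± 0.0055 in air (SD, n = 3 each). Each library's Wilson 95% interval, the widest being 0.114% to 0.204% in air replicate 3, contained the pooled share of 0.156% (0.143% to 0.171%). The scatter over the 6 libraries was no larger than counting error alone gives, with a chi-square of 0.163 per degree of freedom. A change in the share smaller than these intervals was not detectable at this depth. With both rows of miR-7a-5p summed the pooled share was 0.0789%, since the denominator then counts most reads again.

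This pair was compared with every other pair of mature miRNAs that differ at 1 base, with lengths within 1 base of each other and at least 10 counts of the scarcer. There were 23 such pairs, and miR-7b-5p to miR-7a-5p had the lowest percent of all. The next above were miR-106a-5p to miR-17-5p, from paralogous clusters that drive proliferation, at 0.235% (0.099% to 0.369% over the libraries), and miR-211-5p to miR-204-5p, a pair known from melanocytes and the retinal epithelium, at 0.677% (0.383% to 3.49%). miR-10b-5p to miR-10a-5p, encoded in the Hox clusters, followed at 4.18% (3.28% to 4.98%). The miR-7 pair also varied little between libraries. Its highest library was 1.15 times its lowest, and 4 pairs had a smaller ratio. The scatter per degree of freedom ran from 0.52 to 2893 over the other 22 pairs and exceeded 1 in 20 of them. At a given proportional spread this measure grows with the counts, so it does not rank the pairs by steadiness. For miR-19a-3p to miR-19b-3p, with 90186 counts of the scarcer, it was 8.55, although the highest library was 1.07 times the lowest. The miR-7 pair had 468 counts of the scarcer. How many of the miR-7b-5p counts were miR-7a-5p reads with an error at position 10 was not tested.

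**Figure D4:**
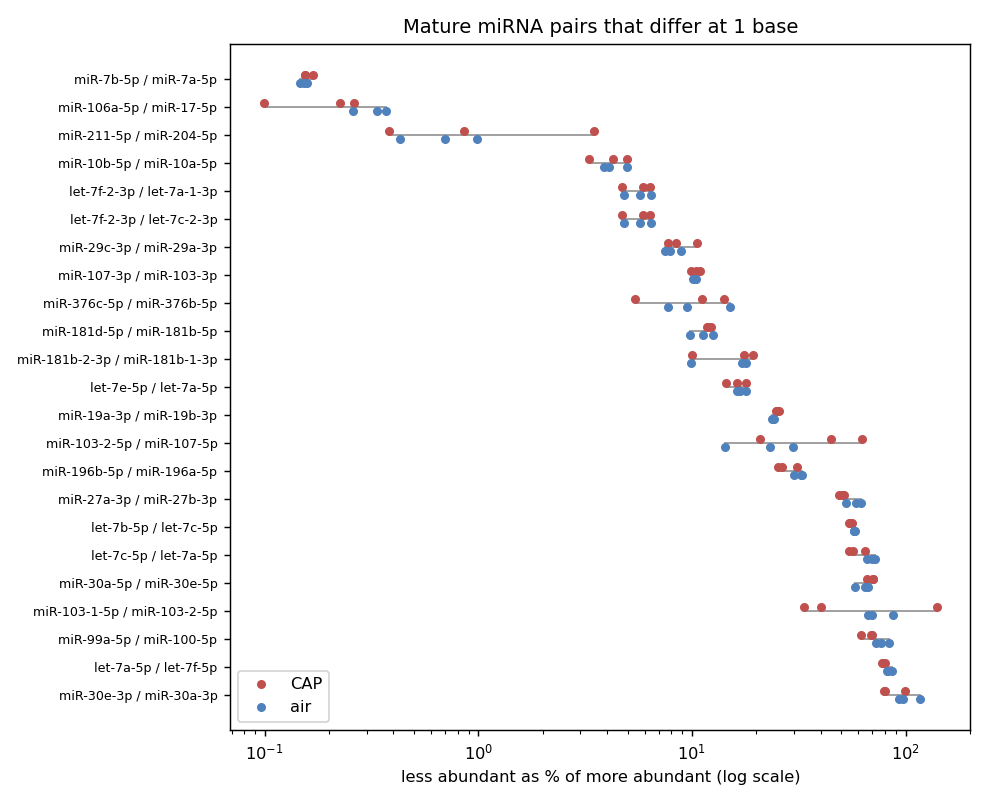
The less abundant miRNA as a percent of the more abundant (horizontal, log scale) in each library for the 23 pairs that differ at 1 base, with CAP libraries in red above air libraries in blue and a grey line over their range. The miR-7 pair at the top has the lowest pooled percent, at 0.156%, and its 6 points nearly coincide.

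The miRNAs whose library profile was nearest to that of miR-7a-5p were sought among the 354 of at least 10 CPM, by the root mean square distance of log2 CPM centred on each miRNA's own mean over the 6 libraries. The nearest were miR-466h-5p (0.104), miR-466k (0.133), miR-466b-5p and miR-466o-5p (0.138 each, with identical counts) and miR-342-5p (0.145). The miR-466 names belong to a rodent repeat-derived cluster in an intron of Sfmbt2 and share much of their sequence, so they are not separate observations. miR-466h-5p had 23.0, 32.0 and 23.2 CPM in CAP and 19.0, 16.9 and 13.4 CPM in air. miR-342-5p, from an intron of Evl, had 35.6, 53.7 and 31.7 CPM in CAP and 23.4, 27.4 and 20.8 CPM in air. In each the highest library was CAP replicate 2, as for miR-7a-5p. Below the level minimum, miR-7b-5p was closer than any of these, at 0.054. Whether its counts are separate from those of miR-7a-5p was not tested. miR-7a-1-3p was at 0.50, near the median distance of 0.52, and 314 tested miRNAs were closer.

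**Figure D5:**
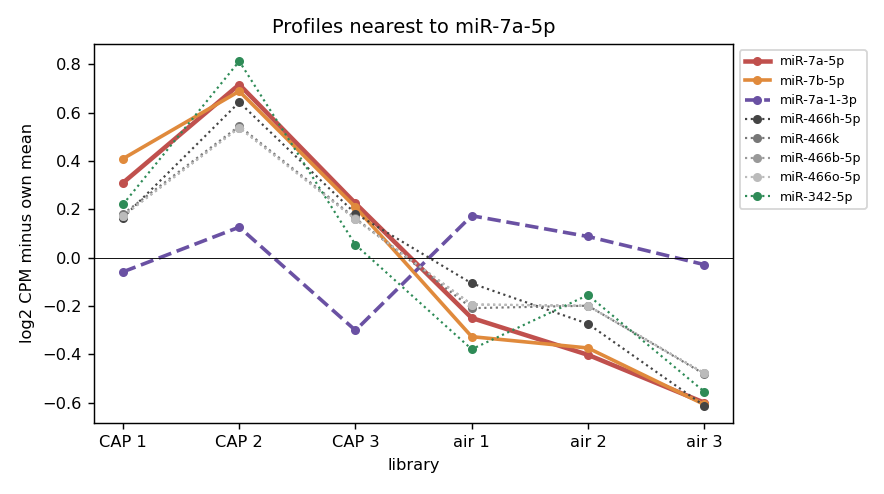
log2 CPM minus the miRNA's own mean (vertical axis) in the 3 CAP and then the 3 air libraries for the 3 tested members and the 5 miRNAs of at least 10 CPM nearest to miR-7a-5p. Solid lines for miR-7a-5p and miR-7b-5p run together (distance 0.054), the dotted lines of the nearest others follow them at 0.104 to 0.145, and the dashed line of miR-7a-1-3p (0.50) does not.

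Of the miRNAs of the miR-7 network, miR-671 directs the cleavage of Cdr1as, and both its strands had like levels in the groups. miR-671-5p had 181, 178 and 164 CPM in CAP and 183, 167 and 167 CPM in air. miR-671-3p had 8.44, 7.48 and 9.62 CPM in CAP and 7.97, 6.48 and 10.2 CPM in air. Their median log2 fold change was 0.04, against 0.0040 as the median of all tested, and lay between -0.07 and 0.11 with 1 library left out at a time. An unadjusted p under 0.05 was met by 0 of the 2, where 21.0% of all tested met it. Cdr1as, Cyrano and the targets of miR-7 are not miRNAs and were not analysed here.

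The miRNAs listed for neurons and endocrine cells, where miR-7 is best known, had like summed levels in both groups. Their summed level was 1008 to 1319 CPM in CAP and 1066 to 1142 CPM in air. Of 10 miRNAs 8 were tested, with log2 fold changes above 0 for 3 and below 0 for 5, and a median of -0.18. With 1 library left out at a time the median ran from -0.62 (without CAP replicate 1) to 0.08 (without air replicate 1). It was -0.34 without CAP replicate 3 and 0.0013 without CAP replicate 2. With all libraries, the miRNAs below 0 included miR-216a-5p (-0.96) and miR-217-5p (-1.14), pancreatic miRNAs that are not particular to endocrine cells. The median is thus not one of neuron and endocrine miRNAs alone. At an unadjusted p under 0.05 there were 2 of the 8, where 21.0% of all tested met it, namely miR-129-5p at 0.42 ± 0.15 (SE, groups without overlap) and miR-153-3p at -0.99 ± 0.39. The defining markers miR-375-3p, of islets and pituitary, and miR-124-3p, of neurons, were near 0, with 12 and 21 counts over all libraries. Other miRNAs of the list were present, with miR-128-3p at 529, 561 and 591 CPM in CAP and 516, 532 and 516 CPM in air. The part of such cells in the miR-7a-5p levels was not tested.

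Markers of the other cell types were present in both groups. The endothelial miR-126a strands summed to 3675, 947 and 1904 CPM in CAP and 2743, 1953 and 5120 CPM in air, with log2 fold changes below 0 for both (median -0.57). The 5 haematopoietic and myeloid miRNAs summed to 60734 to 76285 CPM in CAP and 57865 to 71457 CPM in air, with 4 above 0 and 1 below (median 0.12), and miR-223-3p of myeloid cells exceeded miR-126a-3p in every library. The 6 stromal miRNAs summed to 39301 to 57417 CPM in CAP and 52972 to 65981 CPM in air, with 1 above 0 and 5 below (median -0.34). The 3 erythroid miRNAs summed to 28.6 to 91.7 CPM in CAP and 29.2 to 47.2 CPM in air, all above 0 (median 0.80). This came from CAP replicate 1, since without it all 3 were below 0 (median -0.36), miR-451a at -0.36 and miR-144-3p at -0.39. With 1 library left out at a time the median ran from -1.29 (without CAP replicate 1) to -0.11 (without air replicate 3) for the endothelial list, from 0.0064 (without air replicate 1) to 0.19 for the haematopoietic list and from -0.55 (without CAP replicate 3) to -0.24 for the stromal list. CAP replicate 2 had the highest miR-7a-5p and haematopoietic sum and the lowest endothelial and stromal sums of the 6 libraries, and the part of cell type makeup in the miR-7a-5p levels was not tested. At an unadjusted p under 0.05, which 21.0% of all tested met, were 0 of the 2 endothelial, 1 of the 5 haematopoietic (miR-155-5p at 0.51 ± 0.15, higher without overlap), 2 of the 6 stromal (miR-214-3p at -1.02 ± 0.21 and miR-145a-5p at -0.37 ± 0.11, both lower without overlap) and 0 of the 3 erythroid miRNAs.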

How the data were processed

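Per the study's methods, small RNA libraries were made with the QIAseq miRNA kit, and reads were trimmed and mapped with miRDeep2 and Bowtie to mm10 and miRBase. The submitters' processing notes name bcl2fastq (version 20.0.422) for demultiplexing. The authors deposited raw counts per mature miRNA and precursor. Whether molecular identifiers were collapsed is not given in the sources used here. Where a mature name had several precursor rows, only the one with most counts was used. The filterByExpr filter, TMM scaling and the quasi-likelihood test were run in edgeR 4.0.16 (R 4.3.3), with limma 3.58.1 and DESeq2 1.42.0, the study's tool, as alternatives. The test was tested on simulated data. log2 CPM used a prior count of 2 and strand ratios a pseudocount of 0.5. The members and lists were chosen with earlier results of these data known. Named were all members, miR-671 and miR-3529 (miR-3529 matched no row), same-seed names, the 5 nearest profiles of at least 10 CPM and the 3 nearest 1-base pairs on either side (0 lay below). Pairs were first limited to equal length (18 pairs). The rule was widened after the data were seen, since miR-7b-5p is 1 base longer. Of the 1915 names, 1623 matched RefSeq. Replicates are separate mice of 1 cage per group, so the spread is that between these samples.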

Additional observations from a re-analysis of the deposited data

How the results depend on the processing

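The log2 fold changes of miR-7a-5p and miR-7b-5p stayed above 0 under every alternative run. That of miR-7a-1-3p was small throughout and -0.00022 with upper-quartile scaling, so it had no clear direction. Leaving out 1 replicate at a time gave 0.66 (without CAP replicate 2) to 0.92 for miR-7a-5p, 0.75 to 0.99 for miR-7b-5p and -0.27 to -0.06 for miR-7a-1-3p. With the mir-7a-2 row in place of mir-7a-1, miR-7a-5p had 0.86. The count of miRNAs past the adjusted threshold, 0 with edgeR, was 30 with DESeq2 and 13 without the filter, and 0 under the other alternatives. The count at an unadjusted p under 0.05, 142, was 176 without the filter and 175 on the table as deposited, and with 1 replicate left out at a time it ran from 90 (without air replicate 1) to 155 (without CAP replicate 3). It was 107 without air replicate 2, 95 without air replicate 3 and 124 without CAP replicate 2. The share of miR-7b-5p with summed rows (0.0789%) is the denominator's construction. Raising the minimum of the scarcer miRNA to 50 counts left 19 pairs. The strand ratio of mir-7a-1 used its own row of miR-7a-5p, the larger, and was not computed with the mir-7a-2 row or with summed rows.

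CAP and air libraries with the same replicate number in the labels did not deviate together (correlations of 0.0207, -0.022 and 0.142). The count columns number most of these samples otherwise, so the check cannot say whether the mice were paired. The replicate block used the same label numbers. With the replicate block the count at an unadjusted p under 0.05 was 147, that past the adjusted threshold was 0, and the log2 fold changes were 0.83 for miR-7a-5p, 0.89 for miR-7b-5p and -0.15 for miR-7a-1-3p.

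With 3 libraries a group, and with 468 counts of miR-7b-5p in all, small differences in its share were beyond this depth. Reads from the pair of miR-7a hairpins could not be separated in the table, and ligation differs between sequences, so levels of different miRNAs compare only roughly.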
